A study of Mus musculus with 12 samples.

Results

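The diabetes by pargyline interaction was examined in the hearts of 12 mice, each measured on 1 array, which are all 12 of the 12 miRNA arrays of the series. The interaction is the difference between D+P and C+P minus the difference between D and C, so that it is 0 where diabetes shifted a miRNA by the same amount with and without the drug. It was computed for the 128 miRNAs, of the 1881 on the array, that the scanner software called detected on every array.

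All mice were male C57BL6/J animals, entered the protocol at 6 to 7 weeks of age and were 5 months old when heart muscle was taken. Control mice (C) received neither agent, while diabetic mice (D) had been given streptozotocin at 50 mg/kg per day for 5 days. The C+P group was the control group on pargyline at 50 mg/kg per day for 12 weeks, and the D+P group received streptozotocin followed by the same course of pargyline. Each group held 3 mice, the mice without pargyline received vehicle per the methods of the study, and the comparison asks whether inhibition of monoamine oxidase alters the miRNA response of the heart to diabetes. Streptozotocin kills the insulin-producing beta cells of the pancreas, so the model is one of chemically induced insulin deficiency.

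MiRNAs are short RNAs that lower the output of messenger RNAs, which they recognize mainly through the seed, bases 2 to 8 from the 5′ end. MiRNAs with the same seed are grouped in a family and share many predicted targets, and several come from the same hairpin precursor as a 5p and a 3p arm. Monoamine oxidases are enzymes of the outer mitochondrial membrane that degrade catecholamines and serotonin and release hydrogen peroxide, and pargyline inhibits them irreversibly.

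Mature sequences from RefSeq (GRCm38.p6) were matched for 108 of the 128 miRNAs. The following are shown because relatives either shared the sign of their interaction or had opposite signs, with the seed in capitals. The relatives share a seed or a hairpin, except miR-378c and miR-378d, which share a family name but not the seed.
let-7a-5p: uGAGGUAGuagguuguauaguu
let-7f-5p: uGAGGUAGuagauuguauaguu
let-7c-5p: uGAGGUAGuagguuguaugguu
let-7i-5p: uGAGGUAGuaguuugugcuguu
miR-15b-5p: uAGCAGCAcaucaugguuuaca
miR-16-5p: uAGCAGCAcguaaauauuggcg
miR-497a-5p: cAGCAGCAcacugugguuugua
miR-26a-5p: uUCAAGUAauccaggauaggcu
miR-26b-5p: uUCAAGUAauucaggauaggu
miR-30a-5p: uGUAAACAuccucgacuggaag
miR-30e-5p: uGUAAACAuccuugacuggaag
miR-30c-5p: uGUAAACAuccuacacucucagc
miR-378c: aCUGGACUuggagucagaagc
miR-378d: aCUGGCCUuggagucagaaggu
miR-22-5p: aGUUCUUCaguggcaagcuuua
miR-22-3p: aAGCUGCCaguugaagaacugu

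The next sequences belong to the miRNAs at both ends of the interaction that were outside those families, namely the leukocyte miRNAs miR-223-3p and miR-142a-3p and 4 miRNAs with high numbers and many G and C bases.
miR-223-3p: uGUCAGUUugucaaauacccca
miR-142a-3p: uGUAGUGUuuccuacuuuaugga
miR-7005-5p: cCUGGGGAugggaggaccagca
miR-5622-3p: cUUAGCUGgguagugguggugc
miR-3620-5p: cUGUGGGCugggcugggaagca
miR-7047-5p: uGAGGGAGgagggcugggucuga

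Both arms of miR-22 lie in 1 hairpin on the plus strand of chromosome 11, the 5p arm at chr11:75463734-75463755 and the 3p arm at chr11:75463772-75463793. MiR-15b-5p lies at chr3:69009775-69009796 on the plus strand, next to a copy of miR-16-5p at chr3:69009918-69009939. MiR-223-3p is at chrX:96242884-96242905 on the plus strand, and miR-7005-5p at chr2:180179797-180179818 on the minus strand.

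Before normalization the arrays already differed, and the diabetes difference in the 2 measures that follow had opposite signs without and with pargyline. The number of detected miRNAs was highest in the 2 pargyline groups, and the control signal in D and C+P. The number of detected miRNAs averaged 151 ± 10.4 (SD, n = 3) in C, 182 ± 19.2 in D, 228 ± 21.5 in C+P and 207 ± 17.1 in D+P. The mean log2 signal of the 10 control features detected on every array, spots of the array design that are not mouse miRNAs, was 10.45 ± 0.15, 11.12 ± 0.08, 11.19 ± 0.26 and 10.75 ± 0.42. The interaction of that control signal was -1.10 (SE 0.30), which has the same form as a miRNA with an interaction below 0. D+P replicate 1 stood apart within its group, with a control signal of 10.29 against 10.86 and 11.10 in D+P replicates 2 and 3, inside the range of the C arrays (10.29 to 10.56). One slide carried all C and D arrays and the other slide all C+P and D+P arrays, and on each slide the mice without diabetes occupied array row 1 and the diabetic mice array row 2, so that a constant slide effect and a constant row effect both cancel in the interaction. The defining miRNAs of heart muscle, miR-1a-3p, miR-133a-3p, miR-208a-3p and miR-499-5p, were detected on all 12 arrays, whereas the 5 epithelial miRNAs of the miR-200 family and the 4 miRNAs of pancreas, liver and brain were detected on none.

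**Figure D1:**
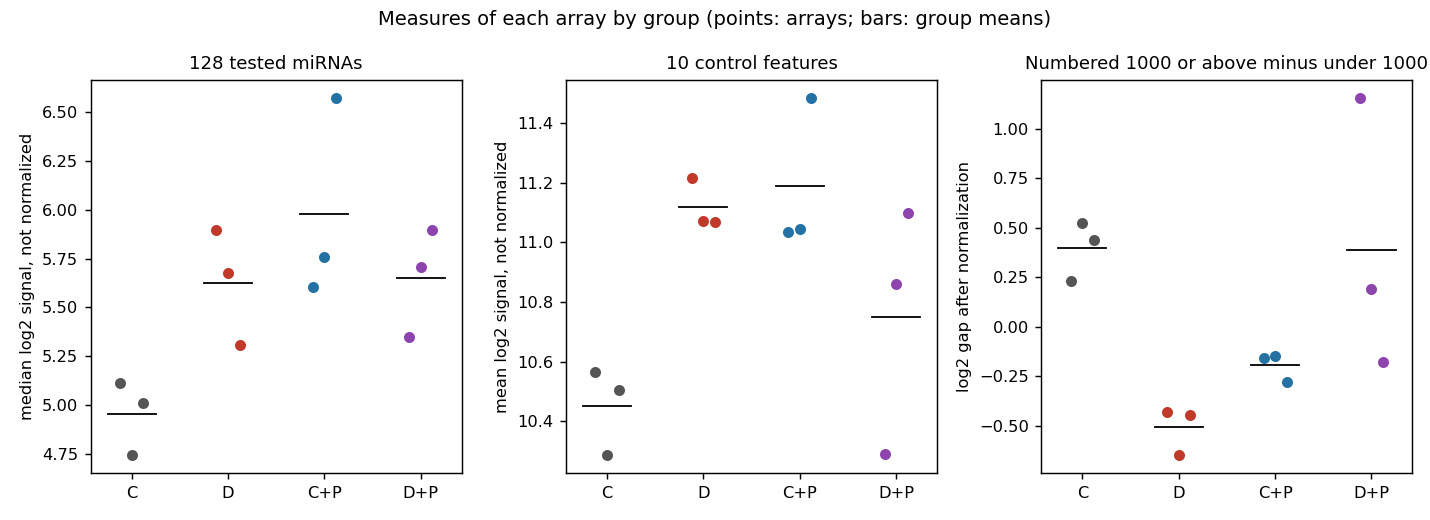
Measures of the 12 arrays, with points for arrays and bars for group means: the median log2 signal of the 128 miRNAs before normalization, the mean log2 signal of the 10 control features before normalization, and a gap after normalization. The gap is the median deviation of miRNAs numbered 1000 or above minus that of those under 1000, where a deviation is the signal minus the mean of that miRNA over the 12 arrays. The C arrays have the lowest control signal with D+P replicate 1, the D and C+P arrays lie between 11.03 and 11.48, and D+P replicate 1 has the highest gap, 1.16.

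After log2 transformation and cyclic loess, a smoothing that makes the arrays comparable over the whole signal range, the interaction differed from 0 in 90 of 128 miRNAs (limma, Benjamini-Hochberg adjusted p under 0.05, a background of 70.3%), which are the miRNAs called here. It was above 0 in 45 miRNAs (35.2% of those tested) and below 0 in 45 (35.2%). Over all 128 miRNAs the interaction had a median of -0.08, a range from -2.88 to 3.02 and a median SE of 0.26 on the log2 scale. The balance of signs belongs to the normalization, which centers the arrays. Without any normalization the median interaction was -1.17, and 70 miRNAs were called, 3 above and 67 below 0. Scaling to the 75th percentile of the detected miRNAs of each array gave 66 calls, 5 above and 61 below 0 (median interaction -0.78), and scaling to the 75th percentile of the 128 miRNAs gave 76 calls, 47 above and 29 below 0 (median interaction 0.20). Values are therefore relative to the other miRNAs of the array, and an absolute gain or loss of RNA was not measured.

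The control signal moved with the interaction, and its part was tested by adding it to the fit as a covariate. No miRNA was then called (limma, 0 of 128, with 12 at an unadjusted p under 0.05), the median absolute interaction dropped from 0.88 to 0.30, and the median SE rose from 0.26 to 0.33. The control signal itself differed between the groups in the form of an interaction, so the share of each cannot be told apart in full. Of the 90 called miRNAs, 83 retained the sign of their interaction. In the 45 called above 0 the median went from 1.16 to 0.33, and in the 45 called below 0 from -1.08 to -0.34. Every count given below is from the fit without this covariate.

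Among the called miRNAs, D+P replicate 1 lay farthest in the direction of the interaction of the 3 D+P arrays in 85 of 90, and D+P replicate 3 in 0 of 90. Leaving D+P replicate 1 out gave 87 calls (40 above and 47 below 0), and all 90 miRNAs called with it retained their sign. The median interaction of the 45 miRNAs above 0 was then 0.98, and that of the 45 below 0 was -0.82. Over all 12 arrays left out in turn, the calls ranged from 76 without C replicate 3 to 96 without D+P replicate 3.

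The 4 group means behind these values crossed in most miRNAs. In 49 of 128 miRNAs the means of C and D+P were the highest, with 44 called above 0. In 46 miRNAs the means of D and C+P were the highest, with 42 called below 0. In these 95 miRNAs the means of diabetes alone and of pargyline alone lay on 1 side, and the means of neither and of both lay on the other. This holds for the group means, and single mice often overlapped. The remaining 33 miRNAs were spread over 4 other shapes, 13 with C and D highest, 8 with D and D+P, 7 with C+P and D+P and 5 with C and C+P, and held 4 calls. The shape uses the same means as the interaction and was not tested against it. Without D+P replicate 1 there were 81 crossing miRNAs. The near-even division rests on the normalization, since without it 68 miRNAs had D and C+P highest and 3 had C and D+P, and with the 75th percentile of all detected miRNAs 39 and 2.

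Within the crossing shapes the commonest order was C highest, then D+P, C+P and D, in 21 of the 45 miRNAs called above 0, followed by C, D+P, D and C+P in 10. Among the 45 called below 0, the order was D, C+P, D+P and C in 16 and D, C+P, C and D+P in 14. The mean of D+P lay beyond that of C in 13 of the 44 crossing miRNAs called above 0 and in 18 of the 42 called below 0. All 6 arrays of C and D+P lay above all 6 of D and C+P in 13 of the 45 miRNAs called above 0, and below all 6 in 12 of the 45 called below 0. These miRNAs were called from the same array values, which favors such separation, and the share over all 128 was not counted.

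**Figure D2:**
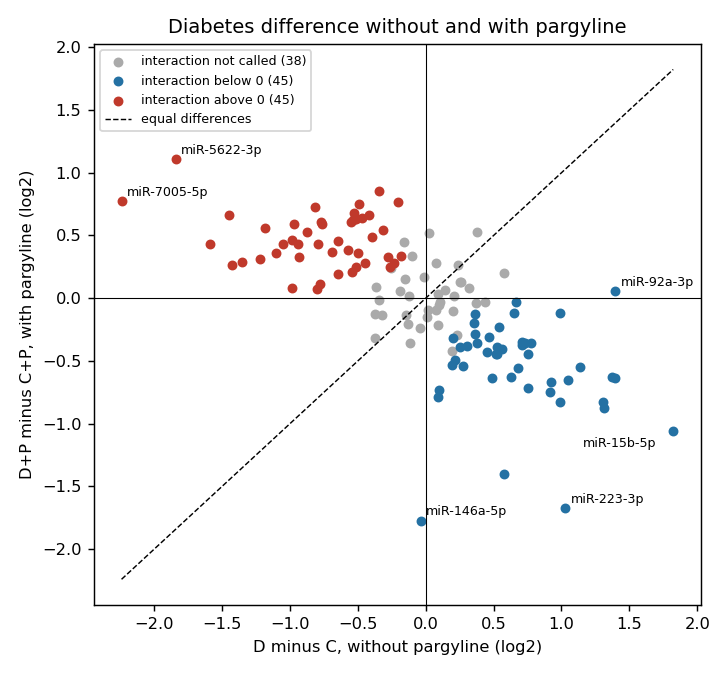
Each point is 1 of the 128 miRNAs, with the D minus C difference on the x axis and the D+P minus C+P difference on the y axis, both on the log2 scale, colored by the interaction call. Points above the dashed line of equal differences have an interaction above 0, and most called miRNAs lie in the upper left and lower right parts of the plot, where the diabetes difference has opposite signs without and with pargyline.

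The D minus C difference was the larger of the diabetes differences in most called miRNAs. It was called in 64 of 128 miRNAs (50%), 31 higher and 33 lower in D, whereas D+P against C+P was called in 17 (13.3%), 7 higher and 10 lower in D+P. D minus C was below 0 in all 45 miRNAs with an interaction above 0 (33 called) and above 0 in 44 of the 45 with an interaction below 0 (30 called), and its size exceeded that of D+P minus C+P in 31 and 32 of them. The D+P minus C+P difference ran the other way in 45 of 45 and 44 of 45 miRNAs, with 7 and 10 calls. The interaction is built from these 2 differences, so selection by its call favors such opposite signs. The share over all 128 was not counted. The number of D+P minus C+P calls depended on single arrays, from 1 without D+P replicate 2, C+P replicate 2 or C+P replicate 3 to 73 without D+P replicate 3. These splits depended on the scaling. D minus C was called higher in 57 and lower in 3 miRNAs without normalization, in 47 and 8 with the 75th percentile of all detected miRNAs, and in 14 and 33 on the normalized values of the authors. With an array left out, D minus C gave between 33 calls (without C replicate 2) and 88 (without D+P replicate 1).

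All arrays with pargyline were on 1 slide and all without it on the other, so pargyline and slide cannot be told apart in the 2 pargyline differences, nor can diabetes and array row in the 2 diabetes differences. C+P against C was called in 47 miRNAs (36.7%), 23 higher and 24 lower in C+P, and D+P against D in 69 (53.9%), 34 higher and 35 lower in D+P. In the 45 miRNAs above 0 the median of C+P minus C was -0.56 and that of D+P minus D was 0.61. In the 45 below 0 the medians were 0.49 and -0.58. The balance of these calls was set by the scaling too. C+P minus C had 96 calls higher and 0 lower without normalization, 99 and 0 with the 75th percentile of all detected miRNAs, 76 and 2 with each slide normalized alone, and 5 and 24 on the values of the authors. D+P minus D had 8 higher and 0 lower, 45 and 1, 72 and 0, and 0 and 3 in the same order. With an array left out, C+P against C fell to 3 calls without C replicate 2 and reached 79 without D+P replicate 1, while D+P against D fell to 13 without D replicate 2 and reached 89 without D+P replicate 3. The 4 differences share groups with each other and with the interaction, so that their calls are not separate evidence.

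Among the miRNAs of heart muscle, miR-1a-3p, a regulator of muscle differentiation and among the most abundant miRNAs of the adult heart, had a large interaction below 0. Its normalized log2 signal was 10.32, 10.20 and 10.07 in the C arrays, 11.66, 11.68 and 11.20 in D, 11.53, 11.73 and 11.78 in C+P and 10.16, 10.82 and 11.43 in D+P. The D and C+P arrays were all above the C arrays, and the D+P arrays spanned from the C level to the D level. D exceeded C by 1.32 (adjusted p = 0.0035), C+P exceeded C by 1.48 (adjusted p = 0.0055), and the interaction was -2.19 (SE 0.37, adjusted p = 0.0026, limma). The miR-133 miRNAs, of which miR-133a is transcribed together with miR-1a, were not called after cyclic loess. MiR-133b-3p lay between 11.12 and 11.66 on all 12 arrays with an interaction of -0.12 (95% interval -0.55 to 0.32, adjusted p = 0.60). MiR-133a-3p gave -0.16 (-0.62 to 0.30, adjusted p = 0.52) and miR-133a-5p 0.31 (-0.12 to 0.73, adjusted p = 0.18). This depended on the scaling. MiR-133b-3p was at -1.69 without normalization (adjusted p = 0.0067) and at 0.54 with quantile normalization (adjusted p = 0.0086), both called, and miR-133a-3p at -1.79 (adjusted p = 0.0067) and 0.49 (adjusted p = 0.053).

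The miRNAs encoded in myosin heavy chain genes had opposite signs, except without normalization, where both were below 0. MiR-208a-3p, from an intron of Myh6, had signals of 5.89, 6.21 and 5.98 in C, 5.06, 5.27 and 5.42 in D, 5.74, 5.36 and 5.57 in C+P and 6.05, 5.42 and 5.54 in D+P. The D arrays did not overlap with the C arrays (D minus C -0.78, adjusted p = 0.0073), and the interaction was 0.89 (SE 0.26, adjusted p = 0.0098). MiR-499-5p, from an intron of Myh7b, had group means of 7.02 in C, 7.11 in D, 7.43 in C+P and 6.64 in D+P and an interaction of -0.88 (SE 0.25, adjusted p = 0.0091).

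The arms of the miR-22 hairpin, a precursor strongly expressed in heart muscle, also diverged. The abundant 3p arm measured 10.11, 10.45 and 10.12 in C, 9.13, 9.23 and 9.41 in D, 9.42, 9.06 and 9.12 in C+P and 10.38, 9.55 and 9.45 in D+P. It was lower in every D and C+P array than in any C or D+P array, and its interaction was 1.57 (SE 0.31, adjusted p = 0.0029). The 5p arm, dimmer on average by nearly 6 log2 units, measured 2.90, 2.88 and 2.69 in C, 4.18, 4.46 and 4.00 in D, 4.28, 4.38 and 4.57 in C+P and 3.63, 3.59 and 4.09 in D+P. Here all C arrays lay below all others, and the interaction was -2.03 (SE 0.24), with the lowest adjusted p of the 128 miRNAs (0.00025). On the normalized values of the authors the 5p arm was not called, whereas the 3p arm was called above 0. Of 6 hairpins with both arms tested, miR-22 and miR-30e had called arms of opposite sign, with miR-30e-5p at 0.60 and miR-30e-3p at -0.49. Both arms of miR-199a were below 0 (-0.76 for 5p and -1.66 for 3p). Without normalization the interaction of miR-22-3p was -0.30, which is above the median of the array but below 0.

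**Figure D3:**
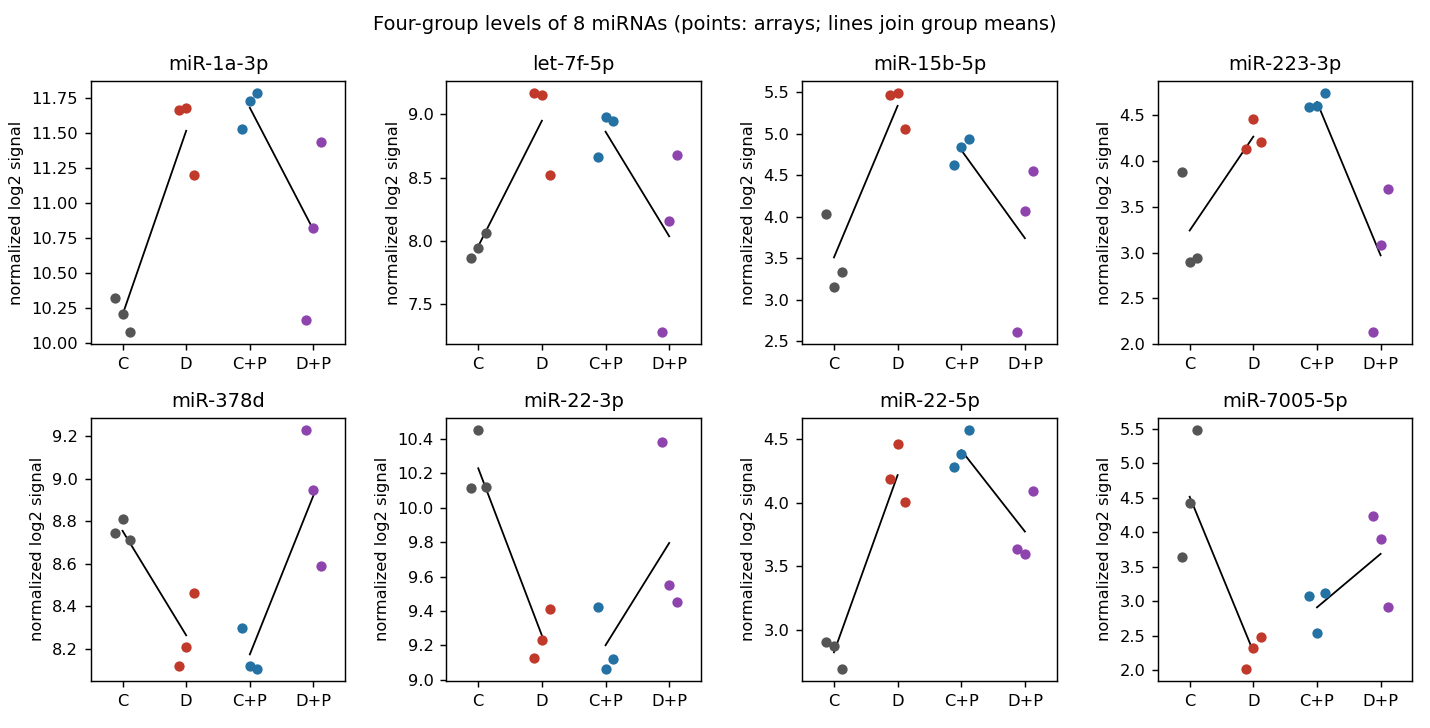
Normalized log2 signal of 8 miRNAs in the 4 groups, with points for arrays and lines joining the means of C and D and the means of C+P and D+P. The lines of miR-1a-3p, let-7f-5p, miR-15b-5p, miR-223-3p and miR-22-5p rise without pargyline and fall with it, and those of miR-378d, miR-22-3p and miR-7005-5p fall without pargyline and rise with it.

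The let-7 family, a seed family associated with differentiated cells, had 7 members tested, of which 4 were called below 0 and 3 were not called. Of all miRNAs 35.2% were called below 0, and of the 90 numbered under 1000, which include every family and list member, 44 were. The median interaction of the let-7 family was -1.26. Let-7f-5p had the largest, -1.82 (SE 0.41, adjusted p = 0.0035). Its signals were 7.87, 7.94 and 8.06 in C, 9.17, 9.16 and 8.52 in D, 8.66, 8.98 and 8.95 in C+P and 7.28, 8.16 and 8.68 in D+P. All D and C+P arrays were above the C arrays, and D+P replicate 1 was the lowest of the 12. Let-7d-5p (-1.59), let-7g-5p (-1.47) and let-7a-5p (-1.26) were also called. Let-7c-5p gave -0.61 (95% interval -1.19 to -0.03, adjusted p = 0.056), let-7b-5p -0.19 and let-7i-5p 0.14.

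Members of the family differ by few bases. Counted from 1 at the 5′ end, with the base of let-7a-5p given ahead of the position, let-7f-5p differs from let-7a-5p by G12A and let-7c-5p by A19G. Signals of such close relatives may include each other's RNA on an array, and how far was not tested.

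The miR-15/16 family has the seed AGCAGCA, which is linked to cell-cycle arrest and to the exit of heart muscle cells from division after birth. It had 5 of 6 members called below 0, against 35.2% of all miRNAs and 44 of the 90 numbered under 1000. Its median was -1.10. MiR-15b-5p had the lowest interaction of all miRNAs. It measured 4.03, 3.16 and 3.34 in C, 5.46, 5.49 and 5.05 in D, 4.62, 4.84 and 4.94 in C+P and 2.61, 4.07 and 4.55 in D+P. No D or C+P array overlapped with C or D+P, and the D+P arrays ranged over nearly 2 log2 units. D was 3.54-fold above C (adjusted p = 0.0055), D+P was 3.01-fold below D (adjusted p = 0.013), and the interaction was -2.88 (SE 0.56, adjusted p = 0.0028). MiR-322-5p followed with -1.70, miR-195a-5p with -1.24, miR-16-5p with -0.96 and miR-15a-5p with -0.88. MiR-497a-5p, which has the same seed and is processed from the cluster that holds miR-195a, gave 0.18 (95% interval -0.19 to 0.54).

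In the miR-26 family, near-identical miRNAs were called in opposite directions after cyclic loess, but not under every scaling. MiR-26b-5p measured 5.77, 5.67 and 5.73 in C, 7.32, 7.23 and 6.53 in D, 6.70, 7.06 and 7.07 in C+P and 5.19, 6.36 and 6.79 in D+P. Its C arrays lay close together and below all D and C+P arrays, and the interaction was -2.13 (SE 0.47, adjusted p = 0.0035). MiR-26a-5p, which differs from it at C11U and C21U over the 21 shared bases (the base of miR-26a-5p ahead of the position), had group means of 8.66 in C, 8.48 in D, 8.32 in C+P and 8.66 in D+P, and an interaction of 0.52 (SE 0.15, adjusted p = 0.0096). The interaction of miR-26a-5p was -1.07 without normalization, -0.69 with the 75th percentile of all detected miRNAs and -0.07 with median centering, none of them called, and 0.29 and not called with the 75th percentile of the tested miRNAs.

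The miR-30 family, abundant in heart muscle and known to repress connective tissue growth factor, was split as well. MiR-30d-5p (1.20), miR-30a-5p (1.15) and miR-30e-5p (0.60) were called above 0, and miR-30b-5p (-1.08) and miR-30c-5p (-0.73) below 0. All 5 were thus called, against 70.3% of all miRNAs. MiR-30d-5p measured 7.33, 7.44 and 7.28 in C, 6.94, 6.94 and 7.15 in D, 6.90, 6.67 and 6.49 in C+P and 7.95, 7.42 and 7.25 in D+P. The D+P arrays all exceeded the C+P arrays (difference 0.85, adjusted p = 0.018, 1 of the 7 miRNAs called higher in D+P than in C+P), whereas D minus C was -0.35 and not called (adjusted p = 0.12). The C13U difference separates miR-30a-5p from miR-30e-5p, and both are above 0. Without normalization all 5 members were below 0, with a median of -0.80.

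All 4 members of the miR-378 family were called above 0, against 35.2% of all miRNAs and 18 of the 90 numbered under 1000. Their values ran from 0.85 to 1.24, with a median of 1.16. The precursor of miR-378a lies in an intron of Ppargc1b, a coactivator of mitochondrial genes. MiR-378d measured 8.75, 8.81 and 8.71 in C, 8.12, 8.21 and 8.46 in D, 8.30, 8.12 and 8.10 in C+P and 9.23, 8.95 and 8.59 in D+P. D and C+P arrays were all below C and D+P arrays. D was lower than C by 0.49 (adjusted p = 0.027), and D+P exceeded C+P by 0.75 (adjusted p = 0.018), so that both diabetes differences passed with opposite signs. Its interaction was 1.24 (SE 0.23, adjusted p = 0.0028). MiR-378a-3p gave 1.21, miR-378b 1.11 and miR-378c 0.85. The other arm of the miR-378a hairpin, miR-378a-5p, is not counted in the family and was not called (-0.38, adjusted p = 0.11, limma). MiR-378d differs from miR-378c at A6C, within the seed, and at C21G, so the members are a family by name and not by a shared seed. The sign of the family rests on the normalization, since without it the 4 values were below 0 with a median of -0.30, which is 0.87 above the median of all miRNAs, and scaling to the 75th percentile of all detected miRNAs gave 0.09.

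The clusters of miR-23, miR-27 and miR-24, which are transcribed together, were partly below 0. MiR-23b-3p measured 7.13, 6.86 and 6.80 in C, 7.71, 7.67 and 7.61 in D, 7.71, 7.64 and 7.70 in C+P and 7.14, 7.28 and 7.55 in D+P, with all D and C+P arrays above the others and an interaction of -1.09 (SE 0.19, adjusted p = 0.0026). MiR-23a-3p was at -0.77 (adjusted p = 0.0066). MiR-27a-3p measured 6.95, 6.28 and 6.18 in C, 7.48, 7.51 and 7.39 in D, 7.20, 7.19 and 7.31 in C+P and 7.11, 7.00 and 7.24 in D+P. Its D arrays were the highest, its D+P arrays were close to the C+P arrays (difference -0.12, adjusted p = 0.61), and its interaction was -1.11 (SE 0.25, adjusted p = 0.0035). MiR-27b-3p, which differs from miR-27a-3p by C19U, gave -0.19 (95% interval -0.59 to 0.22), and miR-24-3p -0.12 (-0.59 to 0.34).

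Further families with 2 or more members tested had calls below 0 only, against 35.2% of all miRNAs and 44 of the 90 numbered under 1000. In the miR-125 family miR-125a-5p reached -2.0 (SE 0.44) and miR-125b-5p -0.55. Neither of these was called on the normalized values of the authors (median -0.60), and 1 of the 2 was called with scaling to the 75th percentile of the tested miRNAs. MiR-125a-5p measured 2.74, 2.88 and 2.93 in C, 4.10, 4.20 and 4.38 in D, 3.80, 3.76 and 3.78 in C+P and 2.22, 3.29 and 3.95 in D+P, with D+P replicate 3 above the C+P values and D+P replicate 1 below the C values. MiR-107-3p (-1.20) and miR-103-3p (-0.65), encoded in pantothenate kinase genes and separated by G22C, were both called, as were miR-148a-3p (-1.13) and miR-152-3p (-0.64). MiR-107-3p ranged from 4.86 to 4.92 in C, 5.30 to 5.84 in D, 5.31 to 5.46 in C+P and 4.54 to 5.28 in D+P. MiR-148a-3p ranged from 4.31 to 4.57, 5.10 to 5.37, 4.86 to 5.06 and 4.04 to 4.98 in the same groups, so that in both miRNAs D and C+P arrays lay above all C arrays. Of the miR-17/20/93 family, whose members promote proliferation, miR-93-5p was called (-1.06, SE 0.31) and miR-106b-5p was not (-0.16). MiR-93-5p measured 3.00, 2.98 and 3.05 in C, 3.76, 3.79 and 3.61 in D, 3.55, 3.48 and 3.62 in C+P and 2.57, 3.39 and 3.65 in D+P. On the normalized values of the authors its interaction was 0.35 and not called (adjusted p = 0.71).

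The miR-29 and miR-10/99/100 families gave no call after cyclic loess. The 3 miR-29 members, which repress collagens, lay between -0.16 and 0.24, and miR-29c-3p had signals between 8.58 and 8.97 on all 12 arrays with an interaction of 0.24 (95% interval -0.11 to 0.60, adjusted p = 0.20). In the other family miR-100-5p gave -0.52 (-1.02 to -0.02, adjusted p = 0.059), with arrays of 5.23, 4.92 and 5.34 in C, 5.44, 5.55 and 5.18 in D, 5.35, 5.41 and 5.45 in C+P and 4.83, 5.18 and 5.32 in D+P, and miR-99a-5p gave -0.05. Under other settings the miR-29 members were called. All 3 were called below 0 without normalization (median -1.65) and with the 75th percentile of all detected miRNAs (median -1.27), and all 3 above 0 after removal of the line on G and C content (median 0.71). The other family had 2 calls below 0 without normalization.

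**Figure D4:**
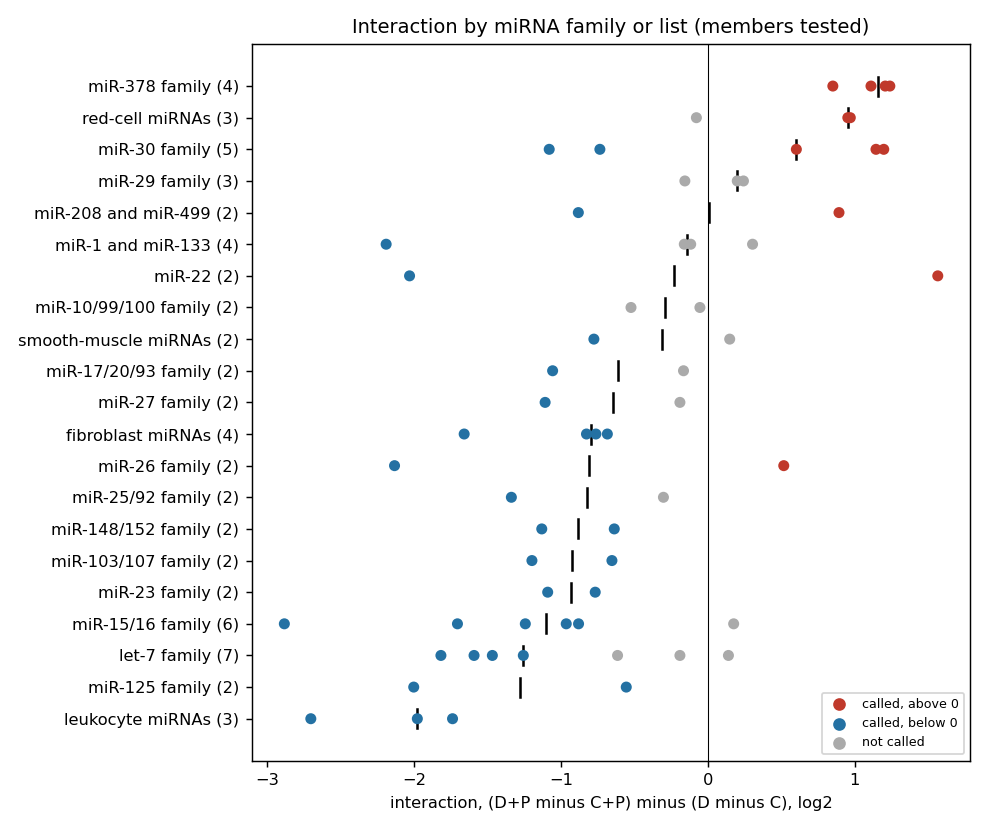
Interaction, on the log2 scale, of each tested member of the 21 families and lists with at least 2 members tested, with the number of members in parentheses and a black bar at the median. Members of the leukocyte list, the fibroblast list and the miR-378 family lie on 1 side of 0, and the miR-30, miR-26 and miR-22 groups and the group of miR-208 and miR-499 hold calls of both signs.

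Of the 21 families and lists with at least 2 members tested, 11 had all members on 1 side of 0. The same was true of 21 without normalization, 17 with scaling to the 75th percentile of all detected miRNAs, 8 with that of the tested miRNAs, and 6 when low-numbered miRNAs were normalized alone. By seed alone, 13 seeds were shared by 2 or more of the 108 miRNAs with a sequence. Calls of a single sign were found in 9 of these, calls of both signs in 2 (GUAAACA of the miR-30 family and UCAAGUA of the miR-26 family), and no call in 2. Of all tested miRNAs 70.3% were called, so a seed with at least 1 call is common.

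Several lists mark cells other than heart muscle cells, and in whole tissue fewer cells of a type cannot be told apart from less RNA per cell. The 3 tested leukocyte miRNAs were all called below 0, against 35.2% of all miRNAs and 44 of the 90 numbered under 1000. Their median was -1.98, and on the normalized values of the authors 1 of the 3 was called. MiR-223-3p, a miRNA of neutrophils and monocytes, measured 3.88, 2.90 and 2.94 in C, 4.14, 4.46 and 4.21 in D, 4.59, 4.60 and 4.75 in C+P and 2.13, 3.09 and 3.70 in D+P. No C or D+P array reached the D or C+P arrays. D was 2.04-fold above C (adjusted p = 0.028), D+P was 3.20-fold below C+P (adjusted p = 0.018), and the interaction was -2.70 (SE 0.49, adjusted p = 0.0026). MiR-142a-3p, a miRNA of all blood cell lineages, measured 3.75, 3.66 and 3.36 in C, 3.92, 4.39 and 4.19 in D, 4.62, 4.34 and 4.48 in C+P and 1.79, 3.50 and 3.95 in D+P, with an interaction of -1.98 (SE 0.58, adjusted p = 0.010). Its D minus C difference was not called (adjusted p = 0.24), and D+P replicate 1 lay far below the other D+P arrays.

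MiR-146a-5p, which dampens inflammatory signaling, was the third of the leukocyte miRNAs and had another shape. It measured 3.03, 2.78 and 2.98 in C, 2.39, 3.18 and 3.10 in D, 3.87, 3.61 and 3.82 in C+P and 1.75, 1.71 and 2.52 in D+P. C and D overlapped (difference -0.04, adjusted p = 0.91), the C+P arrays were the highest, and all D+P arrays but the highest were below every other array. D+P was 3.42-fold below C+P (adjusted p = 0.0011), and the interaction was -1.74 (SE 0.34, adjusted p = 0.0028). On the normalized values of the authors the interaction was 0.67 and not called (adjusted p = 0.61). The other members of the list, miR-142a-5p, miR-150-5p and miR-155-5p, were undetected on 1 or more arrays, and miR-146b-5p was detected on none. All 3 tested members belong to the dimmer miRNAs of the array, with mean signals of 2.89 to 3.83.

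All 4 tested fibroblast miRNAs were called below 0, against 35.2% of all miRNAs and 44 of the 90 numbered under 1000. Their median was -0.79. The largest was miR-199a-3p, which measured 4.83, 4.99 and 4.91 in C, 5.87, 6.03 and 5.56 in D, 5.56, 5.85 and 5.88 in C+P and 4.46, 5.15 and 5.45 in D+P. D and C+P lay above C and D+P on every array, and the interaction was -1.66 (SE 0.31, adjusted p = 0.0028). MiR-21a-5p, which increases in scarred heart tissue, was at -0.83, miR-199a-5p at -0.76 and miR-199b-5p at -0.68. When each array was scaled to the 75th percentile of the tested miRNAs, 1 of the 4 remained called. The endothelial miR-126a-3p gave -0.52 (SE 0.17, adjusted p = 0.018). Of the smooth-muscle miRNAs, miR-143-3p was called (-0.78, SE 0.25, adjusted p = 0.018) with signals of 5.69, 5.55 and 5.50 in C, 6.00, 6.10 and 6.05 in D, 6.33, 6.09 and 6.23 in C+P and 5.44, 6.06 and 6.23 in D+P, and miR-145a-5p was not (0.15).

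Red-cell miRNAs lay above 0 or were not called after cyclic loess, and all 3 were below 0 without normalization. None of the 3 was called on the normalized values of the authors (median 0.66). MiR-486a-5p, found in erythroid and muscle cells, measured 6.75, 6.98 and 6.88 in C, 6.57, 6.43 and 6.99 in D, 6.31, 5.99 and 5.76 in C+P and 7.09, 6.75 and 6.51 in D+P. The C+P arrays were below all others, and the interaction was 0.97 (SE 0.28, adjusted p = 0.0096). MiR-144-3p gave 0.95 (adjusted p = 0.0078), while miR-451a, which defines red cells and is cut from the same transcript as miR-144, gave -0.08 (95% interval -0.57 to 0.42).

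Most of the highest interactions belonged to miRNAs with high numbers, which were entered in the miRNA registry late and for which little function is known. Of 38 tested miRNAs numbered 1000 or above, 27 were called above 0 and 1 below 0 (median 1.07), and of 90 numbered under 1000, 18 were called above and 44 below 0 (median -0.50). Without normalization 3 of the 38 were called above and 4 below 0 (median 0.19), and after removal of a line on G and C content 14 of 34 above and 6 below 0 (median 0.35). The 1 below 0 was miR-1949 (-0.81), named here after its value was seen. The high-numbered miRNAs were also rich in G and C, with a median content of 66.7% (n = 34) against 45.5% (n = 74) in the others. Among the 26 low-numbered miRNAs with 50% or more G and C, 5 were called above and 12 below 0. Their median content was 52.3%, well under that of the high-numbered, so the groups are not matched and the part of G and C content was not tested by them. Across the 108 miRNAs with a sequence, which share arrays and normalization, the interaction and the G and C content had a Pearson r of 0.52 and a Spearman rho of 0.55, and across the 74 low-numbered miRNAs 0.23 and 0.20.

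MiR-7005-5p had the highest interaction, 3.02 (SE 0.59, adjusted p = 0.0028). It measured 3.64, 4.42 and 5.49 in C, 2.02, 2.32 and 2.48 in D, 3.08, 2.55 and 3.12 in C+P and 4.23, 3.91 and 2.92 in D+P. The C arrays were spread over nearly 2 log2 units, all above the D and C+P arrays, and D+P replicate 3 lay among the C+P arrays. MiR-5622-3p followed with 2.95 (SE 0.51), from 4.99, 5.44 and 6.14 in C, 3.71, 3.91 and 3.41 in D, 4.40, 3.97 and 3.52 in C+P and 5.77, 5.03 and 4.40 in D+P. D was 3.58-fold below C for this miRNA (adjusted p = 0.0035), and D+P exceeded C+P by 1.11 without passing (adjusted p = 0.058).

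For miR-466i-5p the arrays gave 5.56, 5.65 and 5.89 in C, 4.75, 4.07 and 3.93 in D, 4.35, 4.91 and 4.58 in C+P and 5.74, 5.16 and 4.91 in D+P, and the interaction was 2.11 (SE 0.36). MiR-3620-5p ranged from 4.17 to 4.61 in C, 2.39 to 3.32 in D, 3.48 to 3.64 in C+P and 3.47 to 4.61 in D+P, with an interaction of 2.02 (SE 0.40). In both, every D and C+P array was below every C array. MiR-7042-5p (1.74), miR-7047-5p (1.69) and miR-6937-5p (1.65) completed the highest 8 with miR-22-3p. Their D arrays were below all C arrays, and their D+P replicate 1 was the highest array of its group, at 6.13, 8.10 and 6.33. In none of these 7 miRNAs was D+P against C+P called, with adjusted p between 0.058 and 0.47.

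The gap between high- and low-numbered miRNAs also differed between the arrays. The median of the high-numbered miRNAs minus that of the low-numbered, after normalization, was 0.23, 0.53 and 0.44 in C, -0.43, -0.65 and -0.44 in D, -0.16, -0.15 and -0.28 in C+P and 1.16, 0.19 and -0.18 in D+P. The C arrays, with the lowest group mean of the control signal, had gaps above 0, and the D and C+P arrays, with the highest, had gaps below 0. Within C and within D+P the order of the gap was opposite to that of the control signal. Within C+P the array with the highest control signal, replicate 3 (11.48), had the lowest gap. Within D the array with the highest control signal, replicate 1 (11.21), had the highest gap. The interaction of the gap was 1.49 (SE 0.42). With the control signal as a covariate the median interaction of the 38 high-numbered miRNAs was 0.16, and none was called. When the low-numbered miRNAs were normalized on their own, 60 of 90 were called, 29 above and 31 below 0. When a straight line on G and C content was removed from each array, 68 of 108 were called, 33 above and 35 below 0.

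After cyclic loess the interaction showed no order by abundance. Cyclic loess evens out differences between arrays that follow the signal, so this outcome was favored by the normalization. The miRNAs were divided by their mean normalized log2 signal over the 12 arrays into 42 dim, 43 middle and 43 bright miRNAs. Of the dim ones, between 2.88 and 4.57, 14 were called above and 15 below 0 (median 0.04). Of the middle ones 16 were called above and 17 below (median -0.24), and of the bright ones, from 6.83 to 13.94, 15 above and 13 below (median -0.12). The Spearman rho of the interaction with the mean signal was 0.02 over 128 miRNAs (-0.25 without normalization), and that of its absolute size was -0.14. The bright median minus the dim median was -0.15. It changed with the scaling, to -1.17 with either 75th percentile, median centering or no normalization, to 0.37 after removal of the line on G and C content and to -0.83 on the normalized values of the authors.

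**Figure D5:**
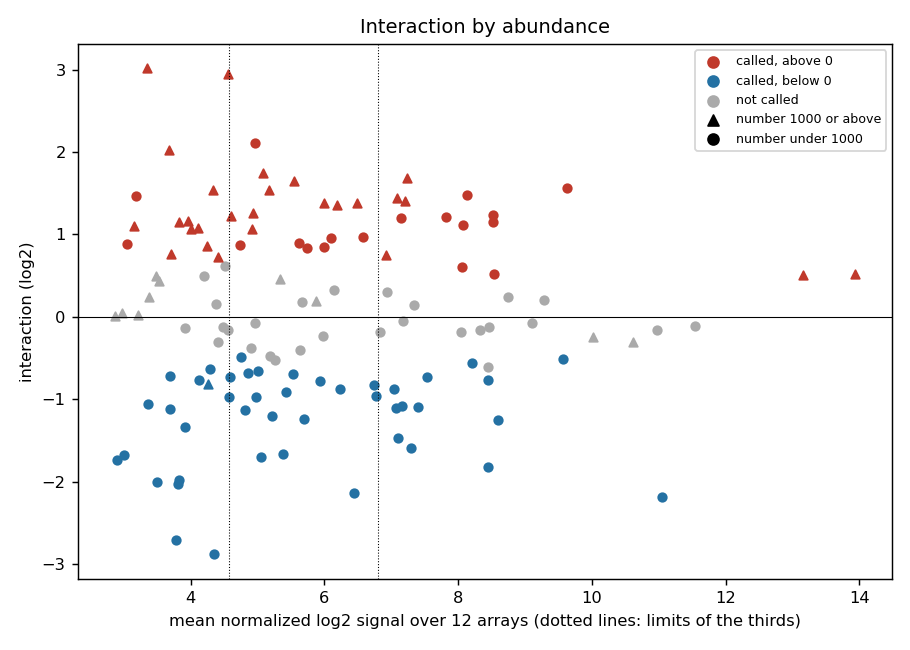
Interaction on the log2 scale against the mean normalized log2 signal over 12 arrays for 128 miRNAs, colored by call, with triangles for numbers of 1000 or above and dotted lines at the limits of the dim, middle and bright miRNAs. Calls above and below 0 are found over the whole range, and triangles lie above 0 in all parts of it.

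High-numbered and low-numbered miRNAs were apart at each level. The high-numbered were called above 0 in 12 of 19 dim, 9 of 11 middle and 6 of 8 bright miRNAs, and the low-numbered below 0 in 14 of 23, 17 of 32 and 13 of 35. The brightest of all, miR-6366 and miR-3963, had small interactions of 0.52 (SE 0.20, adjusted p = 0.036) and 0.51 (SE 0.19, adjusted p = 0.028). MiR-6366 measured 14.08, 14.13 and 14.01 in C, 13.76, 13.73 and 14.03 in D, 13.80, 13.79 and 13.76 in C+P and 14.35, 13.94 and 13.90 in D+P, with overlap of C and D. None of its 4 differences between groups was called, and the interaction of both was below 0 under 3 of the other scalings (no normalization, the 75th percentile of all detected miRNAs and the values of the authors). MiR-133b-3p, miR-1a-3p and miR-133a-3p completed the 5 brightest.

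A few called miRNAs did not cross. MiR-92a-3p, of the miR-17/92 cluster, measured 3.31, 3.31 and 3.47 in C, 4.81, 4.83 and 4.63 in D, 3.95, 3.62 and 3.65 in C+P and 3.34, 3.79 and 4.25 in D+P. Here D stood above all other arrays (D minus C 1.39, adjusted p = 0.00084), C+P and D+P differed by 0.06 (adjusted p = 0.83), and the interaction was -1.34 (SE 0.28, adjusted p = 0.0034). MiR-92a-3p was not called on the normalized values of the authors. For miR-342-3p the D+P arrays, at 2.98, 3.19 and 3.53, were below all 9 others, which lay between 3.55 and 4.18, and the interaction was -0.71 (SE 0.24, adjusted p = 0.018). It was above 0 and not called on the values of the authors (0.17, adjusted p = 0.76) and after separate normalization of the low-numbered miRNAs (0.11). MiR-3473a, at 4.30, 4.28 and 4.51 in C, 3.94, 4.03 and 3.77 in D, 4.47, 4.55 and 4.59 in C+P and 5.21, 4.80 and 4.43 in D+P, was lowest in the D arrays and had an interaction of 0.73 (SE 0.25, adjusted p = 0.021).

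The remaining 1753 miRNAs of the array were not tested. Of these 1611 were detected on no array and 142 on some. Among miRNAs detected on no C array, 43 were detected on all C+P arrays, 19 on all D arrays and 16 on all D+P arrays, and 17 on all D and all C+P arrays. On the D+P arrays 16 of the 17 were detected on 1 or 2 of 3, between C and the other groups, and miR-126a-5p on all 3. Among them were the passenger arms of tested miRNAs (miR-126a-5p, miR-29c-5p), members of tested families (miR-98-5p of the let-7 family, miR-10a-5p, miR-19a-3p and miR-20b-5p) and miR-192-5p and miR-194-5p, named here after their detection was seen. Detection on all C and all D+P arrays but on no D array or no C+P array, was found for 1 miRNA. The C arrays were the dimmest, and the part of array brightness in these counts was not tested.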

How the data were processed

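MiRNAs were measured on 12 single-color (Cy3) arrays, 1 for each of 12 hearts, with 3 hearts in each of 4 groups taken from the sample titles. For each array the authors deposited the Feature Extraction intensity of 1881 miRNAs and of control features, with a detection flag and an undetected value of 0.1, and no normalization between arrays. A separate table deposited by the authors holds normalized intensity values, made after a detection filter by cyclic loess, and was used as an alternative only.

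The intensities of the 128 miRNAs that every one of the 12 arrays detected, the filter that the methods state, were put on the log2 scale, and cyclic loess (span 0.7, 3 iterations) was run in limma 3.58.1 under R 4.3.3. A model of the 4 group means over all 12 arrays was then fitted with lmFit and eBayes in place of the methods' t-test, which has no interaction term. P-values were adjusted within each contrast over the 128 miRNAs (Benjamini-Hochberg), and values under 0.05 were called. The fit was also run on simulated data, with noise drawn independently for each miRNA and array. Differences shared by many miRNAs of an array, such as the gap by number, were not simulated, so that run does not bear on them. Intensities give no number of molecules, and the number of arrays limits the precision.

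MiRNAs named in the text are the 8 highest and 8 lowest interactions among those called, the member with the largest absolute interaction in each family with 2 or more tested members and in each shape, the 5 brightest, and further members of the families. The members, the families and the lists were chosen with earlier results of these data known. Replicates are separate mice, per the labels. Sequences are from RefSeq (GRCm38.p6), and 20 tested miRNAs had no match by name, among them miR-1a-3p, miR-133a-3p, miR-143-3p, miR-23b-3p, miR-30b-5p, miR-30d-5p, miR-378a-3p and miR-486a-5p.

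Alternatives were no normalization, quantiles in place of loess, 2 sets of miRNAs for scaling by a 75th percentile, each slide normalized alone, the authors' normalized values, a filter on detection in all arrays of at least 1 group with undetected values set to the lowest detected signal of the array, 16 added before the log2, an intensity trend, array weights, the control signal as a covariate, the array column or the replicate number as a block, Holm adjustment and each array left out in turn. Removal of a line on G and C content from each array, normalization of miRNAs numbered under 1000 alone and median centering were chosen after seeing the data.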

Additional observations from a re-analysis of the deposited data

Results flagged for a closer look

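The diabetes difference was not the same with and without pargyline in 90 of 128 miRNAs by the interaction term (limma, Benjamini-Hochberg adjusted p under 0.05), which is why each of the following stands out. Of the miRNAs named by rule, the high-numbered ones, miR-466i-5p and members of the red-cell, miR-30, miR-378, miR-208 and miR-22 groups lay above 0, namely miR-7005-5p (3.02), miR-5622-3p (2.95), miR-466i-5p (2.11), miR-3620-5p (2.02), miR-7042-5p (1.74), miR-7047-5p (1.69), miR-6937-5p (1.65), miR-22-3p (1.57), miR-378d (1.24), miR-30d-5p (1.20), miR-486a-5p (0.97), miR-208a-3p (0.89), miR-3473a (0.73), miR-6366 (0.52) and miR-3963 (0.51).

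Those below 0 were miR-15b-5p (-2.88), miR-223-3p (-2.70), miR-1a-3p (-2.19), miR-26b-5p (-2.13), miR-22-5p (-2.03), miR-125a-5p (-2.0), miR-142a-3p (-1.98), let-7f-5p (-1.82), miR-146a-5p (-1.74), miR-199a-3p (-1.66), miR-92a-3p (-1.34), miR-107-3p (-1.20), miR-148a-3p (-1.13), miR-27a-3p (-1.11), miR-23b-3p (-1.09), miR-93-5p (-1.06), miR-143-3p (-0.78) and miR-342-3p (-0.71). They comprise the heart muscle miRNA miR-1a-3p, the leukocyte and fibroblast miRNAs and most of the named members of seed families. With the control signal of the arrays as a covariate all 33 of these named miRNAs had the same sign and 0 of 33 was called.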

How the results depend on the processing

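The number of miRNAs called for the interaction, 90 of 128, stayed between 64 and 94 under the other normalizations of the same miRNAs, the offset, the trend, the array weights, the array column and median centering, with 123 of 209 under the looser detection filter, 68 of 108 after removal of the line on G and C content and 60 of 90 when low-numbered miRNAs were normalized alone. It was 16 with Holm adjustment and 0 with the control signal as a covariate (12 at an unadjusted p under 0.05), in which the cause of the loss was not tested beyond the values given above. With each array left out in turn it ranged from 76 to 96. The crossing shapes, 95 in all, numbered 81 to 98 with an array left out, 71 without normalization, 55 of 90 when low-numbered miRNAs were normalized alone (fewer miRNAs tested), 41 with scaling to the 75th percentile of all detected miRNAs and 42 with each slide normalized alone, where the means of the slides are no longer on 1 scale. Families and lists with all members on 1 side of 0, 11 in all, numbered 11 to 14 with an array left out, 17 with scaling to the 75th percentile of all detected miRNAs, 21 without normalization, 6 when low-numbered miRNAs were normalized alone and 8 to 14 under the other settings.

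The interaction by abundance (bright median minus dim median), -0.15, was -1.17 with either 75th percentile, with median centering and without normalization, 0.37 after removal of the line on G and C content, -0.012 when low-numbered miRNAs were normalized alone, -0.83 on the authors' values, -0.78 with the looser detection filter, 0.00227 with array weights, -0.025 with the control signal as a covariate and -0.30 with the array column as a block. It ranged from -0.35 to 0.066 with an array left out, turning above 0 without C replicate 3 (0.054) and without D+P replicate 1 (0.066).

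Among the 33 called miRNAs named by rule, interactions above 0 went below 0 without normalization for miR-22-3p (-0.30), miR-208a-3p (-0.18), miR-30d-5p (-0.024), miR-378d (-0.35), miR-486a-5p (-0.17), miR-3473a (-0.18), miR-6366 (-0.84) and miR-3963 (-0.94), and all 33 retained their sign relative to the median of the 128. With scaling to the 75th percentile of all detected miRNAs miR-6366 was at -0.46 and miR-3963 at -0.56. On the authors' values miR-93-5p was at 0.35, miR-146a-5p at 0.67, miR-342-3p at 0.17, miR-6366 at -0.22 and miR-3963 at -0.16. MiR-6366 was at -0.34 after removal of the line on G and C content, and miR-342-3p at 0.11 when low-numbered miRNAs were normalized alone. For these changes of sign the cause was not tested. None of the 33 turned its sign with an array left out.

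With the replicate number as a block 86 miRNAs were called, 42 above and 44 below 0. The correlations that follow showed no pairing of the mice by number, but with 3 arrays in each group they cannot decide it. Of 18 pairs of arrays with the same replicate number, 4 had deviations from the group means that correlated above 0.1 (mean r -0.07), and 3 of 12 arrays correlated best with an array of their own number. The number of arrays, 3 in each group, and the low signals of the dim miRNAs limit the precision.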
